A study of Mus musculus with 22 samples.

Results

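The genes described here are 10 neutrophil granule genes, chosen by name and by the stage of neutrophil maturation at which they are known to be expressed, and followed across mouse liver, liver CD8+ T cells and thymus. The 4 early genes were Elane, Mpo, Prtn3 and Ctsg, and the 6 later genes were S100a8, S100a9, Ngp, Camp, Ltf and Lcn2. All 10 were found among the 24786 genes of each expression table. The list rests on what the genes are known for, not on a threshold of their levels. It was chosen with earlier results of these data known, so its counts beside those of all genes are descriptions.

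Neutrophils build their granules in sequence. Promyelocytes in haematopoietic tissue transcribe the azurophil granule proteins, which are neutrophil elastase (Elane), myeloperoxidase (Mpo), proteinase 3 (Prtn3) and cathepsin G (Ctsg), and these transcripts are shut off before the cell leaves the marrow. Myelocytes and later stages transcribe the specific granule proteins neutrophilic granule protein (Ngp), cathelicidin (Camp), lactoferrin (Ltf) and lipocalin 2 (Lcn2), while S100a8 and S100a9, the calprotectin subunits of the cytosol, stay high in circulating neutrophils. Lcn2, an iron-siderophore binder, is also an acute-phase product of hepatocytes. The liver is a blood-forming organ before birth and keeps some granulocyte formation shortly after it.

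The study compared a model in which TG denotes the dnTGFβRII transgene, a dominant-negative type II TGF-β receptor that the Cd4 promoter is known to drive in T cells, with or without loss of Aire, the thymic regulator of self-antigen expression. All animals were C57BL/6 mice of 2 to 4 weeks. The livers were 2 from CD8-depleted TG Aire-/- mice, 2 from untreated TG Aire-/- mice and 2 from untreated Aire+/+ mice without the transgene, so the last 2 groups differ in both the transgene and Aire, which cannot be told apart. The sources used here give neither the agent nor the timing of the depletion. The thymi were 3 each from untreated TG Aire-/-, TG Aire+/- and Aire-/- mice, and CD8+ T cells sorted from liver gave 1 library for each of those 3 genotypes. Values are reads scaled to transcript length and to the library's total (RPKM), so levels may be set beside each other between genes. Groups within the liver and thymus tables were compared with limma on log2(RPKM + 1), with Benjamini-Hochberg adjustment over all genes tested and a threshold of 0.05. Nothing in the labels says that replicates came from separate animals, so the p-values measure the spread between these libraries, which may be technical.

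Depth, inferred from the spacing of low RPKM values, lay between 20000000 and 29900000 reads per library. Cd8a had 0 and 0.187 RPKM in CD8-depleted TG Aire-/- livers, 8.76 and 3.75 RPKM in TG Aire-/- livers and 0.161 and 0.22 RPKM in Aire+/+ livers. Sorted CD8+ T libraries held 172 to 260 RPKM of Cd8a, against 1.97 to 2.67 RPKM of Cd4. Aire was read at 6.5 to 20.2 RPKM in TG Aire-/- thymi, at 10.2 to 13.6 RPKM in TG Aire+/- thymi and at 16.0 to 29.5 RPKM in Aire-/- thymi, and because the labels do not name the deleted stretch, a value over the whole gene checks nothing about the genotype. The first TG Aire-/- thymus stood apart: its Rag1, a recombinase of developing T cells, was 0.571 RPKM against 158 to 614 RPKM in the other 8 thymi, and the monocyte and neutrophil lysozyme Lyz2 was 892 RPKM against 36.7 to 141 RPKM. Thymocyte markers thus went against the label in that library, and the thymus calls are given with and without it. Among the sorted cells, the Aire-/- library had 8437 RPKM of the haemoglobin gene Hba-a1, against 179 RPKM in the TG Aire-/- library and 128 RPKM in the TG Aire+/- library.

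Elane and Prtn3 lie 3072 bases apart on the plus strand of chromosome 10 (79886247 to 79888215 and 79874476 to 79883174; GENCODE positions on GRCm38). S100a8 (90668978 to 90670035) and S100a9 (90692632 to 90695721) lie on opposite strands of chromosome 3. Camp (109847379 to 109849617, minus strand), Ngp (110419747 to 110423012) and Ltf (111019271 to 111042767) are spread along chromosome 9. Mpo is on chromosome 11 (87793581 to 87804413), Ctsg on chromosome 14 (56099881 to 56102574, minus strand) and Lcn2 on chromosome 2 (32384633 to 32388252, minus strand). Prtn3 overlaps Plppr3, and since the strand setting of the authors' counting is not given, the Prtn3 values are uncertain to that extent.

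The 250 bases before the RefSeq start of a pair of early genes and a pair of later genes are printed to show 2 factor motifs (GRCm38.p6, plus strand of the genome, chr10:79886062-79886311, chr10:79879417-79879666, chr9:110419558-110419807 and chr9:111019042-111019291). GAGGAA was found in windows of both stages, and TTGCNNAA in some later windows and in none of the early windows. Capitals mark GAGGAA, a core that the myeloid factor PU.1 recognises, and TTGCNNAA, a site form of the C/EBP factors, on either strand.
Elane: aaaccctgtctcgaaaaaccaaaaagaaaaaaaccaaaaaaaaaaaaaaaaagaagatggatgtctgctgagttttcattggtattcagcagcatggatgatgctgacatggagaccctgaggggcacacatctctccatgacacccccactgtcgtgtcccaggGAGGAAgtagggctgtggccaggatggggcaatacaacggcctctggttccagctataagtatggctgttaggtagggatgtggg
Prtn3: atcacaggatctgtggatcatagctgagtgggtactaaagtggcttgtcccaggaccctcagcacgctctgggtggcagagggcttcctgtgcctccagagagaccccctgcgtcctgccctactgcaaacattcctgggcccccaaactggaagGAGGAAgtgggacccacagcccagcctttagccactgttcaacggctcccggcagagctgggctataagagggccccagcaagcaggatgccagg
Ngp: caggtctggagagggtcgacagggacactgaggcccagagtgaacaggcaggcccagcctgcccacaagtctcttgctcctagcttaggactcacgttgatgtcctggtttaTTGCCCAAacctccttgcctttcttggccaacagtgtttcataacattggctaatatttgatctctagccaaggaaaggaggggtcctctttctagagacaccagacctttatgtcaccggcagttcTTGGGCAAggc
Ltf: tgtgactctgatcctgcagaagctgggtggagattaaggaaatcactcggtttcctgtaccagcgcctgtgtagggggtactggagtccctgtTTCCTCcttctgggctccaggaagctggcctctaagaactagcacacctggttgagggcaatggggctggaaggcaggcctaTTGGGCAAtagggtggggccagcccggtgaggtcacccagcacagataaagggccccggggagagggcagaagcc

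GAGGAA stood in the windows of all 4 early genes, at positions -85 to -80 in Elane and -95 to -90 in Prtn3 counted from the start, and in those of S100a8, Ltf and Lcn2. That made 7 of 10 members, where 23.3% of 32851 promoters hold it. TTGCNNAA stood in none of the early windows and in those of S100a9, Ngp, Ltf and Lcn2, which is 4 of 10 members, where 9.56% of promoters hold it. Ngp carried 2 matches, at -138 to -131 and at -11 to -4, and Ltf carried 1 at -75 to -68 beside a GAGGAA at -157 to -152. TATAAA was found in the windows of Ctsg and S100a8 (12.4% of promoters), and the NF-κB motif in no member (7.25% of promoters). No matches overlapped. These are letters in a window, not measured binding.

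In TG Aire-/- livers the early granule genes were all read far above Aire+/+ livers, with CD8-depleted TG Aire-/- livers mostly in between. Elane was read at 3.63 and 13.6 RPKM in CD8-depleted TG Aire-/- livers, 22.6 and 22.8 RPKM in TG Aire-/- livers and 1.27 and 1.8 RPKM in Aire+/+ livers. The 3 groups did not overlap, and the 2 depleted livers differed far more from each other than the 2 livers of either other group. Mpo, which makes hypochlorous acid, was read at 2.76 and 7.89 RPKM in CD8-depleted TG Aire-/- livers, 18.8 and 24.9 RPKM in TG Aire-/- livers and 1.23 and 1.90 RPKM in Aire+/+ livers, again with no overlap. The serine protease gene Prtn3 was read at 5.08 and 24.6 RPKM in CD8-depleted TG Aire-/- livers, 41.7 and 37.1 RPKM in TG Aire-/- livers and 7.28 and 7.67 RPKM in Aire+/+ livers. Here the depleted livers lay on either side of the Aire+/+ livers. Ctsg, the lowest of the 4, was read at 1.16 and 3.14 RPKM in CD8-depleted TG Aire-/- livers, 5.62 and 7.35 RPKM in TG Aire-/- livers and 0.185 and 0.345 RPKM in Aire+/+ livers. Its Aire+/+ values correspond to about 4.12 and 7.12 reads, so their size is the least precise. In bulk liver, fewer cells of a type and less RNA per cell cannot be told apart.

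**Figure D1:**
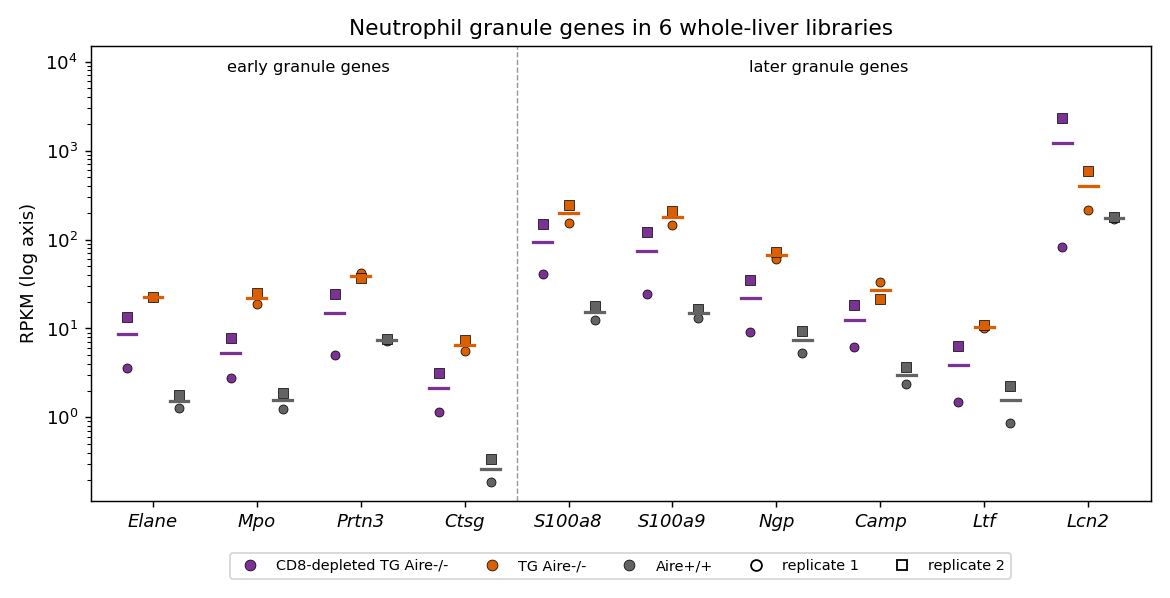
RPKM (log axis) of the 4 early and 6 later granule genes in each of the 6 livers, with a symbol per replicate and a bar at the arithmetic mean of each group. TG Aire-/- livers lie above Aire+/+ livers for all 10 genes, and the second CD8-depleted liver lies above the first for all 10.

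The later genes other than Lcn2 had the same order of groups. S100a8 was read at 41.2 and 148 RPKM in CD8-depleted TG Aire-/- livers, 152 and 244 RPKM in TG Aire-/- livers and 12.5 and 17.9 RPKM in Aire+/+ livers. Its partner S100a9 was read at 24.5 and 122 RPKM in CD8-depleted TG Aire-/- livers, 146 and 211 RPKM in TG Aire-/- livers and 13.1 and 16.6 RPKM in Aire+/+ livers. For both subunits the 3 groups did not overlap, although the second depleted S100a8 value came within a few RPKM of the lower TG Aire-/- value. Ngp was read at 9.09 and 35.4 RPKM in CD8-depleted TG Aire-/- livers, 60.9 and 73.1 RPKM in TG Aire-/- livers and 5.33 and 9.39 RPKM in Aire+/+ livers. Camp, the precursor of an antimicrobial peptide, was read at 6.23 and 18.4 RPKM in CD8-depleted TG Aire-/- livers, 33.1 and 21.6 RPKM in TG Aire-/- livers and 2.37 and 3.67 RPKM in Aire+/+ livers. Ltf, whose product binds iron, was read at 1.49 and 6.28 RPKM in CD8-depleted TG Aire-/- livers, 10.0 and 11 RPKM in TG Aire-/- livers and 0.863 and 2.28 RPKM in Aire+/+ livers. For Ngp and Ltf the first depleted liver lay inside the Aire+/+ range, and for Camp no groups overlapped.

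Lcn2 had a different order from the other 9 genes. It was read at 82.8 and 2346 RPKM in CD8-depleted TG Aire-/- livers, 215 and 586 RPKM in TG Aire-/- livers and 170 and 177 RPKM in Aire+/+ livers. One depleted liver was therefore the lowest of all 6 and the other the highest. Saa1, an acute-phase serum amyloid of hepatocytes, had 17.6 and 747 RPKM in the CD8-depleted TG Aire-/- livers, 3.26 and 4.65 RPKM in the TG Aire-/- livers and 31.7 and 23.8 RPKM in the Aire+/+ livers. The summed level of the 7 listed acute-phase genes was 5750 and 13200 RPKM in the CD8-depleted livers, 3970 and 2860 RPKM in the TG Aire-/- livers and 7710 and 6510 RPKM in the Aire+/+ livers. The acute-phase sum was highest in the depleted liver that was highest in Lcn2, but it was lower in TG Aire-/- livers, whose Lcn2 was above that of Aire+/+ livers; its part in the Lcn2 values was not tested.

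Tested by limma, 9 of the 10 genes were higher in TG Aire-/- than in Aire+/+ livers, a comparison in which 31.8% of the 12231 genes tested were higher and 5.5% lower. Elane averaged 22.7 ± 0.152 RPKM in TG Aire-/- livers and 1.53 ± 0.375 RPKM in Aire+/+ livers (SD, n = 2 each), a difference of 3.23 on the log2(RPKM + 1) scale (SE 0.50, limma adjusted p = 0.0040). Mpo differed by 3.15 (SE 0.42, limma adjusted p = 0.0028) and Ctsg by 2.56 (SE 0.34, limma adjusted p = 0.0028). Among the later genes, S100a8 differed by 3.60 (SE 0.58, limma adjusted p = 0.0045) and S100a9 by 3.49 (SE 0.66, limma adjusted p = 0.0075). Ngp, Camp and Ltf differed by 3.06, 2.81 and 2.22, with limma adjusted p of 0.0072, 0.0055 and 0.0148. Lcn2 differed by 1.03 with an SE of 1.33 (limma adjusted p = 0.559) and did not pass. The median difference was 2.86 for the early and 2.93 for the later genes, against 0.53 for all genes tested, and all 10 genes lay above the Aire+/+ livers without overlap, where 63.0% of genes did so.

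Prtn3 passed in the same comparison with a difference of 2.25 (SE 0.59, limma adjusted p = 0.0229) but was the least stable of the 9. Its limma adjusted p was 0.0529 after upper-quartile scaling, 0.0726 after centring each library on its median and 0.0701 with no filter on low values. All genes split into 3892 higher and 673 lower as deposited, 2290 and 1190 after upper-quartile scaling and 1508 and 1801 after centring, with a median of 0.53, 0.15 and -0.14. All 10 granule genes were higher in sign under both scalings. It also missed the threshold when any single TG Aire-/- or Aire+/+ liver was left out, with limma adjusted p of 0.0733 to 0.118. Ltf missed it with no filter (limma adjusted p = 0.0543) and without the first Aire+/+ liver or either TG Aire-/- liver. Without the second TG Aire-/- liver, 4 granule genes passed (Elane, Mpo, Ctsg and Camp), where 9.29% of all genes were then higher.

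CD8 depletion was set against no depletion in TG Aire-/- mice, and 4 of the 10 genes were lower in the depleted livers, where 33.5% of all genes were lower and 4.49% higher. They were Mpo, with a difference of -1.97 (SE 0.42, limma adjusted p = 0.0118), Ctsg, with -1.31 (SE 0.34, limma adjusted p = 0.0221), Ngp, with -1.82 (SE 0.57, limma adjusted p = 0.0399), and Elane, with -1.52 (SE 0.50, limma adjusted p = 0.0454). The share called is close to that of all genes. Prtn3, S100a8, S100a9, Camp and Ltf had estimates of -1.23 to -1.69 that did not pass, with limma adjusted p of 0.0558 to 0.112. All of these 9 lay below the undepleted livers without overlap, as did 60.6% of all genes. Lcn2 had an estimate of 0.32 (SE 1.33, limma adjusted p = 0.860). The median was -1.61 for the early genes, -1.36 for the later genes and -0.58 for all genes tested.

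The count in this comparison rested on single libraries. It was 0 without the second TG Aire-/- liver, where 9.92% of all genes were lower. It was 2 without the first TG Aire-/- liver (28.1% of all genes) or the first depleted liver (15.2%), and 3 without either Aire+/+ liver (23.2% in both cases). It was 10 without the second depleted liver, the one with 2346 RPKM of Lcn2, where 34.6% of all genes were lower. Upper-quartile scaling, median centring and no filter each left 1 gene, Mpo. All genes split into 549 higher and 4097 lower as deposited, 866 and 2265 after upper-quartile scaling and 1350 and 1287 after centring.

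**Figure D2:**
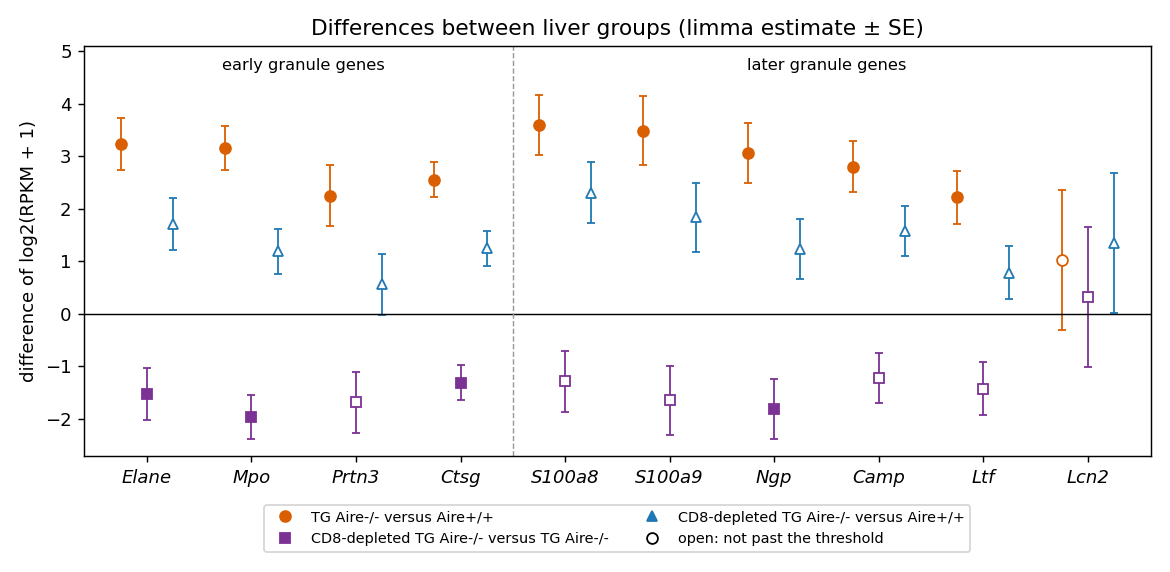
Difference in log2(RPKM + 1) between liver groups as estimated by limma for each granule gene, with bars of ± 1 SE; filled points passed the adjusted threshold and open points did not. In TG Aire-/- against Aire+/+ livers 9 points are filled, in CD8-depleted against undepleted TG Aire-/- livers 4, and in CD8-depleted TG Aire-/- against Aire+/+ livers none, with Lcn2 carrying the widest bars.

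Between CD8-depleted TG Aire-/- and Aire+/+ livers, 0 of the 10 genes passed with limma, where 0.221% of all genes were higher and 0.327% lower. At an unadjusted p under 0.05 there were 6 members and 1327 of all genes. The estimates for the members were all positive, between 0.56 for Prtn3 (SE 0.59) and 2.31 for S100a8 (SE 0.58), with a median of 1.29 against -0.04 for all genes. Without the first depleted liver 3 genes passed (Elane, S100a8 and S100a9), where 0.773% of all genes were higher. Elane, Mpo, Ctsg, S100a8, S100a9 and Camp lay above the Aire+/+ livers without overlap, which 20.2% of genes did.

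The balance of stages within a liver depended on whether Prtn3 was counted. The summed RPKM of Ngp, Camp and Ltf divided by that of the 4 early genes was 1.33 and 1.22 in CD8-depleted TG Aire-/- livers, 1.17 and 1.15 in TG Aire-/- livers and 0.860 and 1.31 in Aire+/+ livers. With Prtn3 in the sum the groups overlapped. Prtn3 made up 73.1% and 65.5% of the early sum in Aire+/+ livers, against 40.2% to 49.9% in the other 4. Without Prtn3 the ratio was 2.22 and 2.43 in CD8-depleted TG Aire-/- livers, 2.22 and 1.92 in TG Aire-/- livers and 3.2 and 3.8 in Aire+/+ livers, and both Aire+/+ livers lay above the other 4. Prtn3 over Elane was 1.40 and 1.81 in CD8-depleted TG Aire-/- livers, 1.85 and 1.63 in TG Aire-/- livers and 5.75 and 4.27 in Aire+/+ livers. Plppr3, which overlaps Prtn3, was read at 1.29 and 1.07 RPKM in CD8-depleted TG Aire-/- livers, 2.61 and 4.67 RPKM in TG Aire-/- livers and 1.49 and 1.61 RPKM in Aire+/+ livers. In TG Aire-/-, TG Aire+/- and Aire-/- CD8+ T cells Plppr3 had 5.79, 10.1 and 10.4 RPKM, beside 2.68, 0.0946 and 12.2 RPKM of Prtn3. In the Aire-/- thymi it had 1.7, 12.4 and 11.3 RPKM, beside 1.21, 1.13 and 0.185 RPKM of Prtn3. The part of Plppr3 in the Prtn3 values was not tested. Over the 6 livers, Pearson's r between members other than Lcn2 ran from 0.883 to 0.994 in 36 pairs, while the 9 pairs with Lcn2 ran from 0.479 to 0.646; the points share libraries and group structure, so this is a description only.

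By level, TG Aire-/- livers held Lcn2, S100a8 and S100a9 at the top with overlapping values, then Ngp, then Prtn3, then Camp, Elane and Mpo with overlap between neighbours, and Ltf and Ctsg last. Aire+/+ livers held Lcn2 first, S100a8 and S100a9 next with overlap, then Prtn3 with Ngp, then Camp, with Ltf, Mpo and Elane overlapping in turn and Ctsg last. In CD8-depleted livers every neighbouring pair of this order overlapped.

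Other genes of the neutrophil programme were taken from lists that do not contain the 10 members. These lists, too, were chosen with earlier results of these data known. Of 12 other early granule and promyelocyte genes, 10 were tested in liver and 10 were higher in TG Aire-/- than in Aire+/+ livers (median 2.16), against 31.8% of all genes (median 0.53). Among them Prss57, a serine protease of azurophil granules, averaged 4.64 ± 2.15 RPKM in TG Aire-/- livers and 0.168 ± 0.0053 RPKM in Aire+/+ livers (limma adjusted p = 0.0028), and Srgn, the proteoglycan that packs granule proteases, averaged 89.2 RPKM in TG Aire-/- and 2.42 RPKM in Aire+/+ livers. Of 21 other later granule genes, 19 were tested, 15 were higher and 1 was lower (median 2.45). The lower one was Wfdc21, which averaged 6.67 RPKM in TG Aire-/- and 81.7 RPKM in Aire+/+ livers. Of the mature neutrophil surface and response genes, 9 of 11 tested were higher (median 2.47), among them Fpr2, a formyl peptide receptor, with a log2 difference of 3.14.

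In CD8-depleted against undepleted TG Aire-/- livers, 8 of 10 other early genes were lower (median -1.55), 9 of 19 other later genes were lower and 1 was higher (median -1.44), and 6 of 11 mature genes were lower (median -1.54), against 33.5% of all genes (median -0.58). Csf3r, the G-CSF receptor, was lower by a log2 difference of -1.50 (limma adjusted p = 0.0371). The higher gene was again Wfdc21, at 960 ± 15.8 RPKM in depleted and 6.67 ± 0.452 RPKM in undepleted livers (SD, n = 2 each), a log2 difference of 6.97 (limma adjusted p = 1e-04). Unlike Lcn2, it was high in both depleted livers. Between depleted and Aire+/+ livers, 1 of the 19 other later genes was higher and none of the other early or mature genes passed.

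Of the 10 listed transcription factors, 9 were tested and Gfi1 did not pass the filter. Of these 9, 6 were higher and 1 lower in TG Aire-/- than in Aire+/+ livers. Which cells of the liver expressed them was not tested, so the count is not one of neutrophils alone. Spi1, which encodes PU.1, averaged 34.8 ± 2.67 RPKM in TG Aire-/- livers and 4.17 ± 0.747 RPKM in Aire+/+ livers (log2 difference 2.80, limma adjusted p = 0.0048). Cebpd, Irf8, Klf2, Runx1 and Myb were the other 5 higher genes, with log2 differences of 0.96 for Myb to 3.22 for Irf8. Cebpa, which hepatocytes also express, was lower, at 35.4 RPKM in TG Aire-/- and 118 RPKM in Aire+/+ livers (log2 difference -1.73, limma adjusted p = 0.010). Cebpe, the factor most tied to specific granule genes, averaged 1.52 ± 0.379 RPKM in TG Aire-/- livers and 0.479 ± 0.277 RPKM in Aire+/+ livers (log2 difference 0.77) and did not pass (limma adjusted p = 0.260), and Cebpb had an estimate of 0.04 (limma adjusted p = 0.930). With CD8 depletion 7 of the 9 were lower, Spi1 by a log2 difference of -1.92 (limma adjusted p = 0.016).

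Of the growth factors and attractants, 1 of 4 tested was higher and 1 lower in TG Aire-/- than in Aire+/+ livers. The higher one was the chemokine Ccl3 (log2 difference 2.47) and the lower one the marrow-retention chemokine Cxcl12 (log2 difference -1.08). Of 10 tested inhibitors of granule proteases, 4 were higher and 1 was lower, with a median of -0.33, which is near the shares of all genes (31.8% and 5.5%). Slpi, a secreted inhibitor of neutrophil elastase and cathepsin G, averaged 62.3 RPKM in TG Aire-/- and 1.93 RPKM in Aire+/+ livers (log2 difference 4.47, limma adjusted p = 0.0212). With CD8 depletion, 2 of these inhibitors were higher, among them Serpina1e (log2 difference 2.79), and 3 were lower.

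Markers of several other blood lineages were, like the granule genes, higher in TG Aire-/- than in Aire+/+ livers and lower with CD8 depletion. Those of B cells were not. The likeness did not extend to CD8-depleted against Aire+/+ livers for all lineages. There the median difference was 0.87 for monocyte, 0.63 for T cell, 0.04 for megakaryocyte and -0.35 for erythroid precursor markers, against 1.29 for the granule genes. The summed RPKM of 6 monocyte markers was 31.5 and 98.5 in CD8-depleted TG Aire-/- livers, 205 and 352 in TG Aire-/- livers and 21.1 and 21.0 in Aire+/+ livers. The erythroid precursor sum was 235 and 526 in CD8-depleted TG Aire-/- livers, 14800 and 8300 in TG Aire-/- livers and 1100 and 968 in Aire+/+ livers. Tested marker genes higher in TG Aire-/- than in Aire+/+ livers were 6 of 6 for monocytes, 6 of 7 for erythroid precursors, 5 of 5 for megakaryocytes and platelets and 7 of 7 for T cells, against 31.8% of all genes. With CD8 depletion, 5 of 6 monocyte, 6 of 7 erythroid, 5 of 5 megakaryocyte and 7 of 7 T cell markers were lower, against 33.5% of all genes. B cell markers summed to 1.74 and 4.34 RPKM in CD8-depleted TG Aire-/- livers, 13.4 and 2.43 RPKM in TG Aire-/- livers and 4.67 and 5.77 RPKM in Aire+/+ livers, and 0 of 2 tested passed in either comparison. Of 5 tested Kupffer cell markers, 4 were higher in TG Aire-/- than in Aire+/+ livers and 2 were lower with CD8 depletion, against 31.8% and 33.5% of all genes. Hepatocyte markers summed to 63500 and 35600 RPKM in CD8-depleted TG Aire-/- livers, 37300 and 24500 RPKM in TG Aire-/- livers and 56100 and 56600 RPKM in Aire+/+ livers. Of 5 tested hepatocyte markers, 1 passed as lower in TG Aire-/- than in Aire+/+ livers (median of the 5, -0.97). The part of these cells in the granule gene results was not tested.

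Sorted liver CD8+ T cells held later granule transcripts at high levels in 2 of the 3 libraries. S100a9 was read at 290.2 RPKM in the TG Aire-/- library, 7.45 RPKM in the TG Aire+/- library and 522 RPKM in the Aire-/- library. S100a8 was read at 144 RPKM in TG Aire-/-, 2.99 RPKM in TG Aire+/- and 349.5 RPKM in Aire-/- CD8+ T cells. Ngp was read at 127 RPKM in TG Aire-/-, 3.60 RPKM in TG Aire+/- and 413 RPKM in Aire-/- CD8+ T cells. These 3 genes led the list in each library. Camp had 29.6, 0.533 and 104 RPKM, Ltf had 6.88, 0.713 and 77.0 RPKM and Lcn2 had 54.5, 1.04 and 123 RPKM in TG Aire-/-, TG Aire+/- and Aire-/- CD8+ T cells. The TG Aire+/- library was the lowest for all 10 members.

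The early genes were far lower in the same libraries. Elane was read at 2.28 RPKM in TG Aire-/-, 0.10 RPKM in TG Aire+/- and 10.6 RPKM in Aire-/- CD8+ T cells, and Prtn3 at 2.68, 0.0946 and 12.2 RPKM in the same order. Mpo had 1.06, 0.178 and 8.29 RPKM, and Ctsg 0.566, 0.229 and 1.97 RPKM. In the TG Aire+/- library the early values stand for about 2.15 reads for Elane, 3.57 for Prtn3, 5.15 for Ctsg and 13.3 for Mpo, so only Mpo is clearly more than a handful of reads there.

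**Figure D3:**
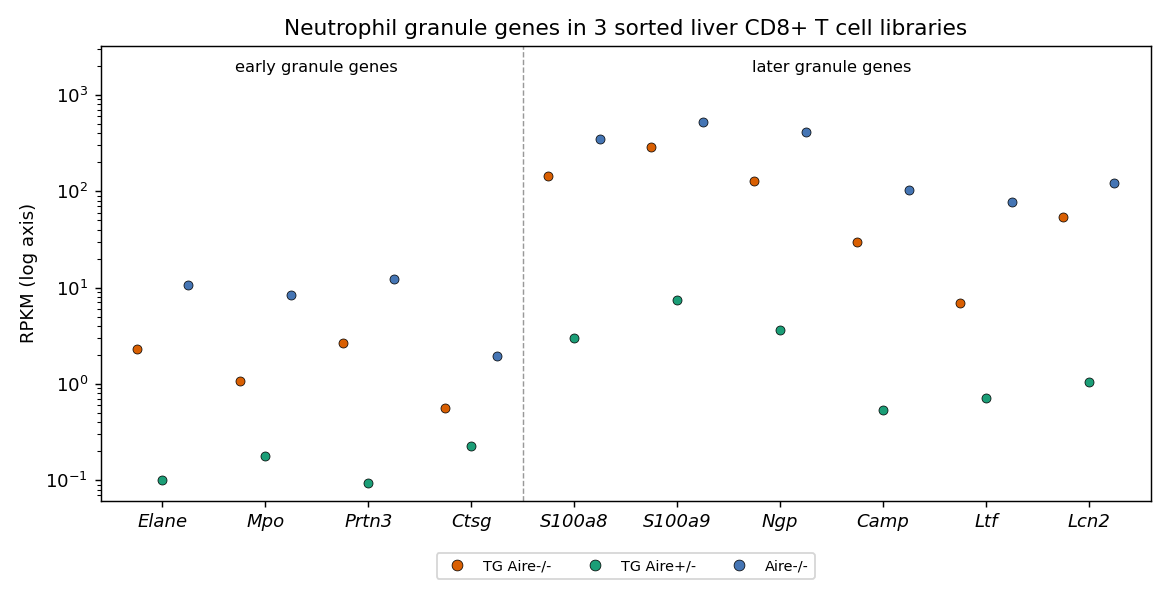
RPKM (log axis) of the granule genes in the 3 libraries of sorted liver CD8+ T cells, 1 library per genotype. The TG Aire+/- library is lowest for every gene and the Aire-/- library highest, and in the TG Aire-/- and Aire-/- libraries all later genes lie above all early genes.

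With 1 library per genotype there was no test, and differences of log2(RPKM + 1) were counted at 1 or more for genes with at least 5 RPKM in either library. All 6 members kept, the later genes, were higher in TG Aire-/- than in TG Aire+/- CD8+ T cells, by 2.20 for Ltf to 5.18 for S100a8, where 7.49% of genes were higher. Of these 6, 5 reached 5 RPKM only in the TG Aire-/- library, so the filter favours such a count and it is no support. Set against Aire-/- CD8+ T cells, 8 of 9 members kept were lower in TG Aire-/- cells, where 9.93% of genes were lower, with S100a9 just short at -0.85 and Ltf the farthest at -3.31. In TG Aire+/- against Aire-/- CD8+ T cells, 9 of 9 were lower, by -2.98 for Mpo to -6.49 for Ngp, where 3.0% of genes were lower. Here 8 of the 9 reached 5 RPKM only in the Aire-/- library, as did 3 of the 9 (Elane, Mpo and Prtn3) in the comparison before, and these counts are favoured in the same way. Over all 10 members with no filter, the differences ran from 0.35 to 5.18 for TG Aire-/- against TG Aire+/- cells, from -3.31 to -0.85 for TG Aire-/- against Aire-/- cells and from -6.49 to -1.27 for TG Aire+/- against Aire-/- cells. These comparisons share libraries, so they are not independent of each other.

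Other later granule genes included some with the same order of libraries and some without. The other early genes and transcription factors that were kept mostly did not follow it. Of 12 other early genes, 4 or 7 were kept, depending on the comparison. How far the sorted T cells themselves express the genes kept was not tested, so the contrast cannot be read as one of maturation stage. Chil3, a chitinase-like granule protein, had 41.5 RPKM in TG Aire-/-, 0.728 RPKM in TG Aire+/- and 81.6 RPKM in Aire-/- CD8+ T cells. Ifitm6 and the decoy receptor gene Il1r2 were higher in TG Aire-/- than in Aire-/- CD8+ T cells, at 40.0 against 32.3 RPKM and 12.1 against 5.72 RPKM, and TG Aire+/- cells had 0.0846 and 0.202 RPKM. The neutrophil surface marker gene Ly6g was low, at 0.357, 0.0501 and 4.24 RPKM in TG Aire-/-, TG Aire+/- and Aire-/- CD8+ T cells. Of the other later granule genes, 7 of 11 kept were higher and 1 lower in TG Aire-/- than in TG Aire+/- CD8+ T cells (median 2.5), against 7.49% of all genes, while 0 of 4 other early genes (median -0.30) and 0 of 6 transcription factors (median -0.39) were higher by 1 or more. Between TG Aire+/- and Aire-/- CD8+ T cells, 12 of 15 other later genes were lower (median -3.47), against 2 of 7 other early genes (median -0.05) and 3 of 7 transcription factors (median 0.16), where 3.0% of all genes were lower. Genes of these lists were kept by the same filter as the members. It can favour such counts in the same way, so they are no support.

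The libraries differed in other markers too. Summed T cell markers were 1450 RPKM in TG Aire-/-, 1680 RPKM in TG Aire+/- and 1490 RPKM in Aire-/- CD8+ T cells. Erythroid precursor markers summed to 214, 171 and 12800 RPKM, eosinophil markers to 0.941, 1.31 and 64.1 RPKM and B cell markers to 8.56, 11 and 42.6 RPKM in TG Aire-/-, TG Aire+/- and Aire-/- CD8+ T cells. Those 3 lists were highest in the Aire-/- library, as the granule genes were, and of the 3 only the erythroid list was higher in TG Aire-/- than in TG Aire+/- cells. Acute-phase markers, at 14.3, 0.621 and 29.8 RPKM, and progenitor markers, at 1.13, 0.145 and 2.53 RPKM, ran in the order of the granule genes. The sum of the 6 monocyte markers, at 683, 1220 and 638 RPKM, ran the other way, but single markers disagreed. Of them 5, 3 and 5 reached 1 RPKM in the same order of libraries. Of 5 kept in TG Aire+/- against Aire-/- cells, 2 were higher and 2 lower by 1 or more. Hepatocyte markers summed to 2.52, 3.49 and 5.69 RPKM, and Kupffer cell markers to 0.859, 0.0382 and 0.431 RPKM, with 2, 4 and 1 of the 5 at 0. The part of such cells, and of neutrophils carried through the sort, in the granule gene values was not tested.

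Each granule gene, early or later, was read lower in every thymus than in either TG Aire-/- liver. S100a8 and S100a9 were at the top in every group of thymi. The tables were normalised separately and no test was made between them. Elane was read at 0.183, 0.00101 and 0 RPKM in TG Aire-/- thymi, 1.14, 0.547 and 0.579 RPKM in TG Aire+/- thymi and 0.527, 0.737 and 0.326 RPKM in Aire-/- thymi. TG Aire-/- thymi thus lay below both other groups without overlap (as did 7.88% of tested genes against TG Aire+/- thymi and 6.42% against Aire-/- thymi), at values where 3 reads are worth 0.102 to 0.136 RPKM. Mpo was read at 0.301, 1.12 and 0.428 RPKM in TG Aire-/- thymi, 1.56, 1.69 and 1.12 RPKM in TG Aire+/- thymi and 1.39, 1.43 and 0.192 RPKM in Aire-/- thymi, and each pair of groups overlapped. Prtn3 lay between 0.185 and 2.18 RPKM and Ctsg between 0 and 0.303 RPKM over the 9 thymi, with overlap of all groups.

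Later genes spread widely within each group of thymi. S100a8 was read at 59.7, 37.0 and 8.24 RPKM in TG Aire-/- thymi, 45.4, 35.9 and 15.8 RPKM in TG Aire+/- thymi and 65.7, 29.4 and 6.74 RPKM in Aire-/- thymi. Camp was read at 2.63, 6.18 and 1.05 RPKM in TG Aire-/- thymi, 7.72, 4.88 and 1.62 RPKM in TG Aire+/- thymi and 11.9, 5.13 and 2.01 RPKM in Aire-/- thymi. The library numbered 3 was the lowest of its group for every later gene, and for the early gene Prtn3, in all 3 groups. Lcn2 was read at 13.6, 1.89 and 0.688 RPKM in TG Aire-/- thymi, 5.26, 3.20 and 1.37 RPKM in TG Aire+/- thymi and 5.49, 5.43 and 1.52 RPKM in Aire-/- thymi, with its highest value in the TG Aire-/- thymus that stood apart. That library also had 223 RPKM of Hp, haptoglobin, a gene of later granules and of hepatocytes, against 0.923 to 3.71 RPKM in the other 8. Its Ngp, Camp and Ltf, at 2.82, 2.63 and 1.12 RPKM, lay within the range of the other thymi. So did its summed hepatocyte markers, at 10.7 RPKM. Cfd, a neighbour of Elane, had 109 RPKM in that library, against 0.0796 to 5.93 RPKM in the other 8. The source of its Hp and Lcn2 transcripts was not tested.

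**Figure D4:**
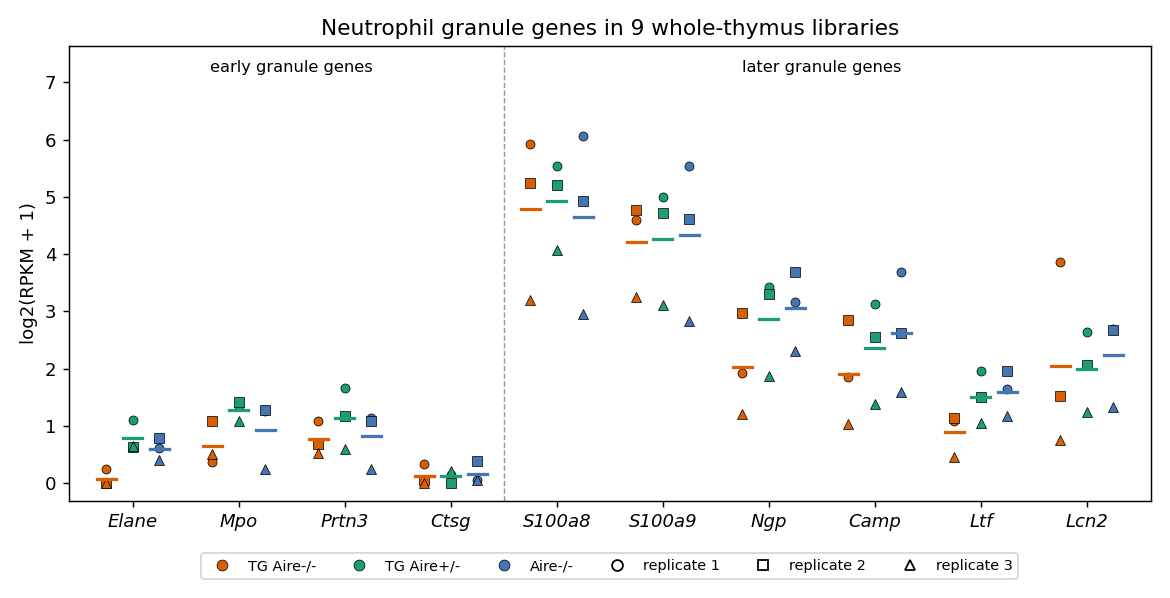
Level of the granule genes, as log2(RPKM + 1), in each of 9 thymi, with a symbol per replicate and a bar at the mean of the log2 values of each group. The groups overlap for nearly all genes, with Elane in TG Aire-/- thymi and Ltf in TG Aire-/- against Aire-/- thymi as the exceptions.

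Tested by limma, 0 of the 8 members that passed the filter differed in any thymus comparison, with or without the thymus that stood apart; Elane and Ctsg did not pass the filter on low values. Among all 12568 genes tested, 0.0% were called between TG Aire-/- and TG Aire+/- thymi and between TG Aire+/- and Aire-/- thymi, and 0.0159% were lower in TG Aire-/- than in Aire-/- thymi. At an unadjusted p under 0.05 there were 279, 949 and 118 genes in TG Aire-/- against TG Aire+/-, TG Aire-/- against Aire-/- and TG Aire+/- against Aire-/- thymi, and 0 members in each. Estimates lay between -0.83 and 0.06 for TG Aire-/- against TG Aire+/- thymi, between -1.02 and 0.15 for TG Aire-/- against Aire-/- thymi and between -0.27 and 0.36 for TG Aire+/- against Aire-/- thymi. Ltf had 1.12, 1.2 and 0.370 RPKM in TG Aire-/- thymi and 2.14, 2.88 and 1.26 RPKM in Aire-/- thymi, which did not overlap, as was so in this direction for 6.42% of genes (log2 difference -0.70, limma adjusted p = 0.610). Elane, fitted with no filter, had a difference of -0.71 from TG Aire+/- thymi (SE 0.15, limma adjusted p = 0.264) and of -0.52 from Aire-/- thymi (SE 0.15, limma adjusted p = 0.687). No gene of the other neutrophil lists passed in thymus with all libraries.

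Without the TG Aire-/- thymus that stood apart, 0 of the 8 members passed in each comparison. Of all 12406 genes then tested, 50 (0.403%) were lower in TG Aire-/- than in TG Aire+/- thymi, 19 (0.153%) were lower in TG Aire-/- than in Aire-/- thymi and 4 (0.0322%) were higher in TG Aire+/- than in Aire-/- thymi. At an unadjusted p under 0.05 there were 565, 1516 and 386 genes in those comparisons, and 0, 1 and 0 members. All 8 members had estimates below 0 against both TG Aire+/- thymi (-0.84 to -0.26) and Aire-/- thymi (-1.10 to -0.13). The estimate for Ltf was -0.80 against Aire-/- thymi (limma adjusted p = 0.403). With no filter as well, Elane had estimates of -0.79 against TG Aire+/- thymi (limma adjusted p = 0.159) and -0.60 against Aire-/- thymi (limma adjusted p = 0.329). Of the other neutrophil lists, Serpinb1a, an inhibitor of the granule serine proteases, passed, lower in TG Aire-/- than in TG Aire+/- thymi by a log2 difference of -1.47 (limma adjusted p = 0.0409).

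The highest ratios of later to early transcripts were those of TG Aire-/- and Aire-/- CD8+ T cells. Ngp, Camp and Ltf summed to 24.8 times the early genes in TG Aire-/- CD8+ T cells, 8.06 times in TG Aire+/- and 17.9 times in Aire-/- CD8+ T cells. In thymus the ratio was 3.51, 8.01 and 3.12 in TG Aire-/-, 4.09, 4.48 and 2.27 in TG Aire+/- and 6.97, 5.53 and 9.70 in Aire-/- mice. The livers, between 0.860 and 1.33, lay below every thymus and every CD8+ T library, and the thymus range overlapped the lowest CD8+ T value, which rests on few early reads. Without Prtn3 the livers, between 1.92 and 3.8, still lay below the CD8+ T libraries, between 9.56 and 41.8, but overlapped the thymi, between 2.89 and 12.9. The ratio is formed within a library, so it does not depend on how a table was scaled, but no test was made across tables. Within the later genes, S100a8 and S100a9 summed to 2.25 to 4.50 times Ngp, Camp and Ltf in liver, 1.78 to 12.6 times in thymus and 2.65, 2.15 and 1.47 times in TG Aire-/-, TG Aire+/- and Aire-/- CD8+ T cells. Lcn2 over Ngp was 9.11 and 66.3 in CD8-depleted TG Aire-/- livers, 3.52 and 8.03 in TG Aire-/- livers and 31.9 and 18.8 in Aire+/+ livers, but 0.289 to 0.428 in CD8+ T cells and 0.277 to 4.82 in thymus.

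**Figure D5:**
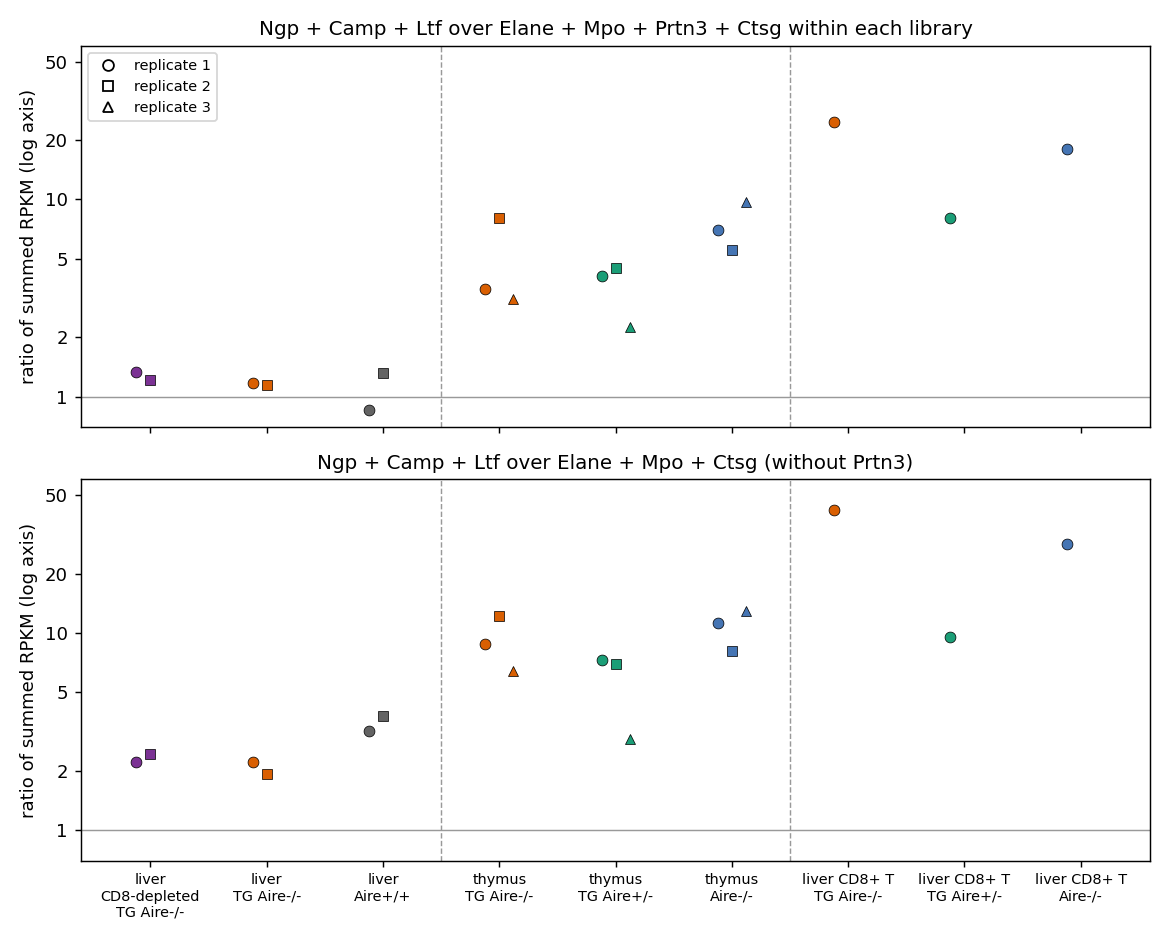
Summed RPKM of Ngp, Camp and Ltf divided by that of Elane, Mpo, Prtn3 and Ctsg (upper panel) and of Elane, Mpo and Ctsg (lower panel) in each library, on log axes, by tissue and group, with a grey line at 1. Livers lie between 0.860 and 1.33, thymi between 2.27 and 9.70 and sorted liver CD8+ T cells between 8.06 and 24.8 in the upper panel; in the lower panel the Aire+/+ livers, at 3.2 and 3.8, reach into the thymus range.

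Over the 6 livers, the genes outside the 10 with the highest Pearson correlation to the mean of the 4 early genes, among 12221, were Thnsl1 (r = 0.9994), Slfn1 (0.9984), Csf2ra (0.9979), Tmem68 (0.9979) and Mlkl (0.9976). For the mean of the 6 later genes they were Oasl1 (r = 0.9991), Casp12 (0.9959), Madd (0.9946), Lpcat3 (0.9938) and Tmco3 (0.9924). Csf2ra encodes the GM-CSF receptor alpha chain. Over the 9 thymi the closest were Rhbdl2 (r = 0.9046) for the early and Stfa2 (r = 0.897), a stefin A gene, for the later genes, among 12560. With so few libraries and group differences shared by much of the genome, these are descriptions.

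Of 17 protein-coding neighbours of the 10 genes, 11 were tested in liver. Against Aire+/+ livers, 3 were higher in TG Aire-/- livers (Ccrl2 near Ltf at 2.53, Ptpn23 at 1.33 and Ptbp1 near Prtn3 at 1.06) and 1 was lower (Nme6 at -1.13), with a median of 0.66. All genes had 31.8% higher, 5.5% lower and a median of 0.53, and the granule genes 9 of 10 higher and a median of 2.93. In CD8-depleted against undepleted TG Aire-/- livers 5 were lower, with a median of -0.67. All genes had 33.5% lower and a median of -0.58, and the granule genes a median of -1.48. In thymus 0 of 12 neighbours tested passed, and without the thymus that stood apart 1 of 11 did, Lpo next to Mpo, which was lower in TG Aire-/- than in TG Aire+/- thymi (log2 difference -1.70, limma adjusted p = 0.0139) and in Aire-/- thymi (-1.75, limma adjusted p = 0.0113).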

How the data were processed

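RNA-seq of total liver cells, total thymus cells and CD8+ T cells sorted from liver, per the labels' protocols, was used. The authors deposited RPKM values per gene in one table per tissue. The submitters' processing notes list STAR 2.5.2b and the mouse build mm10. The annotation and the strand setting of the counting are not stated there. The liver table holds the livers labelled batch 2, and 4 further livers were not analysed here. All value columns could be mapped to samples (0 were not).

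The 10 genes and all other lists were chosen with earlier results of these data known. RPKM values were taken to log2(RPKM + 1). Genes with at least 1 RPKM in at least 2 livers or 3 thymi were kept, which left 12231 and 12568 genes. limma 3.58.1 in R 4.3.3 was fitted per table to all 3 groups at once, with a mean-variance trend and two-sided tests, and p-values were adjusted over all genes kept (Benjamini-Hochberg, threshold 0.05). The script was tested on simulated data. In CD8+ T cells, with 1 library per group, differences of 1 or more were counted among genes with at least 5 RPKM in either library. Tests were made only within a table.

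RPKM is not a count, so no count test was used. Low RPKM values of single-transcript genes fall on steps worth 1 read each, and depth was inferred from those steps. Between 40.5% and 49.2% of low values came out whole within 0.1 reads, where 20% would by chance, so reads per gene are approximate and no counts were recovered. A floor of 3 reads covers counting error only. Alternatives were another pseudocount (0.1), no filter, upper-quartile (75%) scaling, median centring, no trend, only the groups compared, a replicate block and each library left out. A ratio without Prtn3 and a thymus fit with neither filter nor the library that stood apart were added after seeing the data.

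All 10 genes are named in each comparison. Of each other list up to 4 genes with the smallest p-values past the threshold were named, or 2 where none passed; transcription factors, neighbouring genes and the 5 genes most alike in pattern were also named. Csf3r, Lyz2, Hp, Saa1, Ly6g and Plppr3 were added for their roles. Gene positions came from GENCODE on GRCm38, promoters from RefSeq (GRCm38.p6), where all 10 genes matched. Motifs were searched on both strands of the 250 bases before each start. Scripts used Python 3.11.15, pandas 2.3.3, numpy 2.4.6 and matplotlib 3.10.9.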

Additional observations from a re-analysis of the deposited data

Results flagged for a closer look

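Elane, the neutrophil elastase gene, had opposite signs in thymus and sorted cells, with no overlap of the thymus groups. In TG Aire-/- against TG Aire+/- thymi its difference in log2(RPKM + 1), fitted with no filter on low values, was -0.71 and did not pass (limma adjusted p = 0.264). All 3 TG Aire-/- thymi lay below all 3 TG Aire+/- thymi, as was so for 7.88% of tested genes. TG Aire-/- thymi held only about 5.39, 0.0245 and 0 reads of Elane. In sorted liver CD8+ T cells Elane was higher in the TG Aire-/- library (2.28 RPKM) than in the TG Aire+/- library (0.10 RPKM, about 2.15 reads). Opposite signs are not particular to Elane. Of the 8 members tested in this thymus comparison, 7 had estimates below 0, none past the threshold. They were Ngp, Mpo, Ltf, Camp, Prtn3, S100a8 and S100a9, at -0.83, -0.63, -0.62, -0.44, -0.38, -0.14 and -0.06. All of them were higher in the TG Aire-/- than in the TG Aire+/- CD8+ T library. Lcn2, at 0.06 in thymus, was not opposite in sign. The difference between the tissues was not tested.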

How the results depend on the processing

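Of the 10 granule genes, 9 were higher in TG Aire-/- than in Aire+/+ livers with limma. That count was 8 after upper-quartile scaling or median centring, 7 with no filter and 4 to 9 with one library left out. The count lower in CD8-depleted than in undepleted TG Aire-/- livers, 4, became 1 with no filter, upper-quartile scaling or median centring, and 0 to 10 with one library left out. Replicate numbers gave no pairing of libraries that held throughout. In liver the correlation of deviations between same-numbered libraries was -0.145 to 0.292. With 2 libraries a group, the other pairing gives the same size with the sign turned, so pairing cannot be judged there. In thymus the correlation was -0.183 to 0.766, with 0.674, -0.18 and 0.766 between TG Aire+/- and Aire-/- thymi numbered 1, 2 and 3. For the later granule genes, however, the thymus numbered 3 was the lowest of its group in every group. With replicate numbers as a block the count in CD8-depleted against undepleted TG Aire-/- livers was 8, where 31.8% of all genes were lower. The crossed pairing, chosen after seeing the data, gave 5, where 4287 of 12231 genes were lower. Between CD8-depleted TG Aire-/- and Aire+/+ livers the count was 0, and 0 to 3 with one library left out. In thymus it was 0 in every setting tried. Of all genes, 31.8% were higher in TG Aire-/- than in Aire+/+ livers as deposited, and 18.6% with no filter. After upper-quartile scaling 2290 of 12231 were higher, and 1508 after median centring. In CD8-depleted against undepleted TG Aire-/- livers 33.5% were lower as deposited and 19.7% with no filter. After upper-quartile scaling 2265 of 12231 were lower, and 1287 after median centring. The causes of the changes in the granule gene counts were not tested.

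Signs turned for single genes that did not pass. In thymus, for TG Aire-/- against TG Aire+/-, S100a9 was 0.058 after centring and Lcn2 -0.093 at a pseudocount of 0.1. For TG Aire-/- against Aire-/- thymi, Prtn3 was 0.020 at that pseudocount and 0.076 after centring, and S100a9 was 0.0089 after centring. For TG Aire+/- against Aire-/- thymi S100a9 was 0.0039 after upper-quartile scaling. With one library left out, Lcn2 ran from -2.09 to 2.72 in CD8-depleted against undepleted TG Aire-/- livers, and against Aire+/+ livers from -1.06 to 3.75, with Prtn3 from -0.48 to 1.60. In TG Aire-/- against TG Aire+/- thymi the ranges were -0.71 to 0.65 for S100a8, -0.65 to 0.41 for S100a9 and -0.84 to 0.71 for Lcn2. In TG Aire-/- against Aire-/- thymi they were -0.35 to 0.10 for Prtn3, -0.70 to 0.94 for S100a8, -0.87 to 0.48 for S100a9 and -1.10 to 0.46 for Lcn2. In TG Aire+/- against Aire-/- thymi they were -0.56 to 1.0 for S100a8, -0.81 to 0.55 for S100a9, -0.56 to 0.31 for Ngp, -0.79 to 0.25 for Camp, -0.31 to 0.14 for Ltf and -0.70 to 0.12 for Lcn2. Depth limits Ctsg in all thymi, Elane in TG Aire-/- thymi and Elane, Prtn3 and Ctsg in TG Aire+/- CD8+ T cells.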
